A study of Saccharomyces cerevisiae with 24 samples.

Results

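The 57 genes described here encode ribosome biogenesis factors of budding yeast: the protein cores of the nucleolar snoRNPs, the UTP proteins and other components of the small-subunit processome, and assembly factors of the large (60S) subunit. They were listed by systematic name from known functions and not by a rule on expression values, but with earlier results of these data known. Each of the 57 was found among the 6600 mRNA features and 7127 features of the count table. All 57 had enough counts to be tested, in a set of 6518 genes tested. Transcript levels were measured by sequencing of total RNA with a stranded mRNA kit in W303 MATa cells, which are GAL+ and carry can1-100, ade2-1, trp1-1 and ura3-1, together with the W303 mutant alleles of leu2 and his3. These were shuffle strains whose NPL3 copy sits on the low-copy LEU2 plasmid pRS315. The plasmid carried NPL3 (the control), npl3-F162Y (first RNA recognition motif), npl3-P196D-A197D (linker between the motifs) or npl3-F245I (second motif). Each strain was grown in rich medium to mid-log phase and was either kept at 30 °C or moved to 37 °C for 1 h, which gave 8 groups of 3 libraries. The cells of the 37 °C groups thus all received a heat shift, and the cells of every group depend on a plasmid for Npl3.

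Ribosome biogenesis starts in the nucleolus, where RNA polymerase I makes the precursor of the ribosomal RNAs and the small-subunit processome assembles on it while it is transcribed. Box C/D snoRNPs methylate the precursor and box H/ACA snoRNPs turn uridines into pseudouridines, guided by their snoRNAs. Large-subunit factors then fold and trim the 60S precursor, and GTPases and export adapters release it to the cytoplasm. In yeast the genes of these factors form the Ribi regulon, which is transcribed in proportion to growth and is turned down for a time after heat shock. Many Ribi promoters carry the PAC element, bound by the repressors Dot6 and Tod6, and the RRPE element, bound by Stb3.

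Both elements were looked for as short core letters, since they are what these promoters are known to share. The letters GATGAG (PAC core) and AAAAATTTT (RRPE core) were searched on both strands in the 300 bases before the start codon, in the RefSeq copy of build R64, the build that the submitters' processing notes name. Of the 57 members, 54 (94.7%) held GATGAG, against 1148 of 6001 protein-coding genes (19.1%). AAAAATTTT stood before 41 members (71.9%), against 440 of 6001 genes (7.33%). Both stood before 39 members (68.4%), against 220 genes (3.67%). The GATGAG match nearest the start codon began 57 to 204 bases before it (median 113.5), and the nearest AAAAATTTT match 34 to 248 bases before it (median 138). UTP22 was the only member with neither. UTP4 and UTP15 held AAAAATTTT alone, and 15 members, NSR1, SSF1 and NOC3 among them, held GATGAG alone. A match is a description of the letters and not a measured binding site. Stretches that run from the GATGAG match nearest the start codon to the AAAAATTTT match nearest it are shown for 11 members that the results below turn on, on the strand of the gene and from 5′ to 3′, with up to 8 flanking bases. Capitals mark matches to either motif on either strand, so that CTCATC is GATGAG read from the other strand, and capitals at an edge belong to a match that runs past the stretch.
NOP1 (YDL014W) at chrIV:427131-427173, plus strand: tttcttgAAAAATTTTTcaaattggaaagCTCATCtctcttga
CBF5 (YLR175W) at chrXII:505981-506016, plus strand: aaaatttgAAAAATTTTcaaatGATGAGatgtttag
GAR1 (YHR089C) at chrVIII:283410-283443, minus strand: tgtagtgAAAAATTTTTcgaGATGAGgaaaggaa
UTP5 (YDR398W) at chrIV:1267277-1267353, plus strand: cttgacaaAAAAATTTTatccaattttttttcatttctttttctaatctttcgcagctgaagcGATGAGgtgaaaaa
UTP20 (YBL004W) at chrII:227444-227477, plus strand: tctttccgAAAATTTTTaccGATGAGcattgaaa
ENP1 (YBR247C) at chrII:714562-714599, minus strand: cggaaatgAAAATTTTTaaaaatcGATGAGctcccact
NOP7 (YGR103W) at chrVII:695290-695328, plus strand: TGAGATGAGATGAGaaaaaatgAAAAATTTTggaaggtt
NOG1 (YPL093W) at chrXVI:370839-370883, plus strand: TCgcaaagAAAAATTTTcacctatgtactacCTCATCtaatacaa
NOG2 (YNR053C) at chrXIV:723249-723301, minus strand: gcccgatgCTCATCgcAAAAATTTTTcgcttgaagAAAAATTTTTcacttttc
TIF6 (YPR016C) at chrXVI:593151-593274, minus strand: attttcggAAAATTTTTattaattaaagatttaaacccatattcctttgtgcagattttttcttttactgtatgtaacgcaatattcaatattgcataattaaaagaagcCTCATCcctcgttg
NMD3 (YHR170W) at chrVIII:443661-443696, plus strand: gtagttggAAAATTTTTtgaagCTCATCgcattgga

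In UTP5, TIF6 and NOG1 a further GATGAG match, farther from the start codon, lay closer to the AAAAATTTT match than the one shown. The plot of motif positions shows the arrangement in every member.

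**Figure D1:**
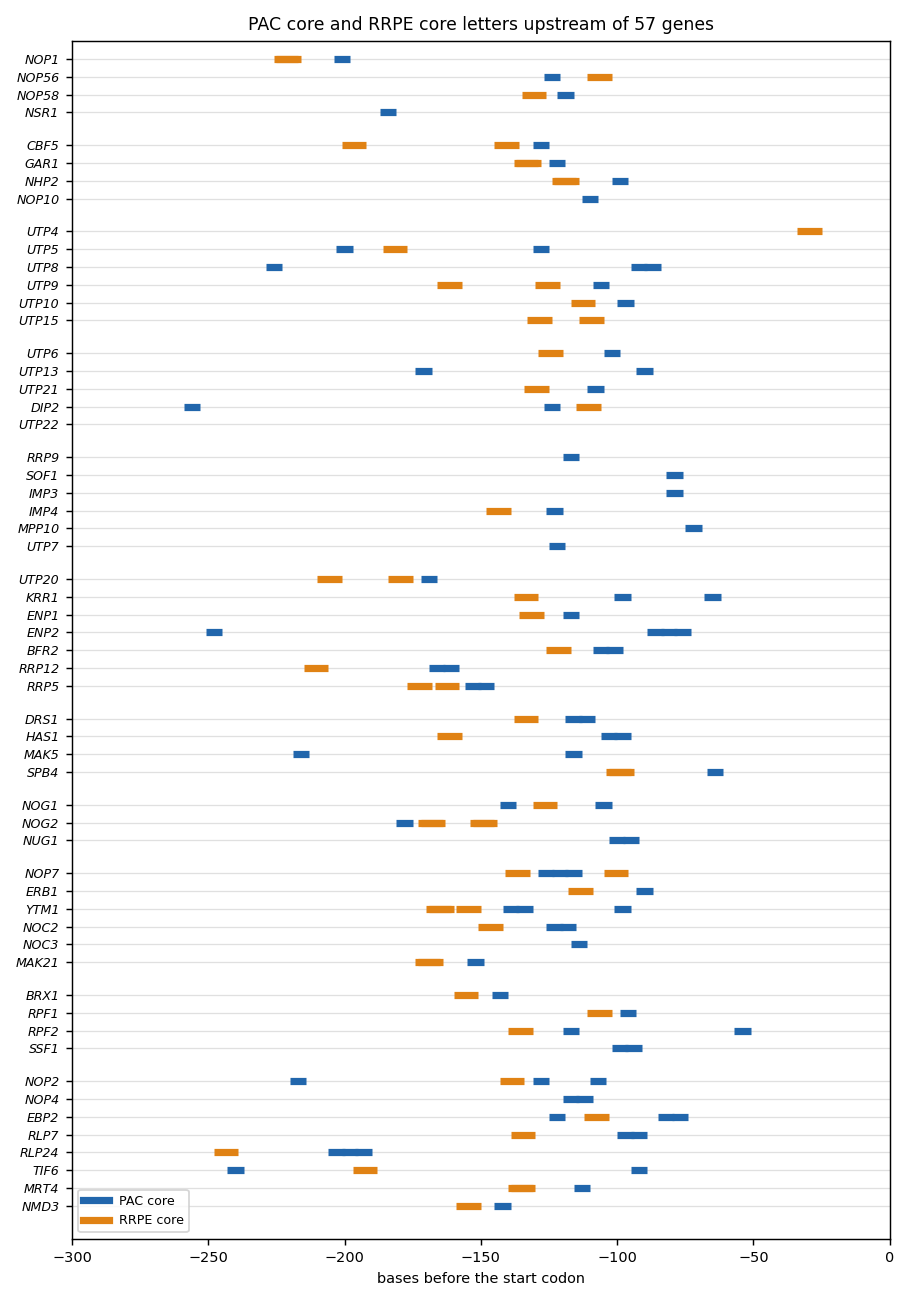
Positions of GATGAG (PAC core, blue) and AAAAATTTT (RRPE core, orange) on either strand in the 300 bases before the start codon of each of the 57 genes, with the x axis in bases before the start codon and the genes ordered by role. Of the 57 genes, 54 hold the PAC core and 41 the RRPE core, and UTP22 holds neither.

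Counts assigned to genes ranged from 15832309 to 34740383 per library. Levels are given as CPM, counts relative to a library size scaled by TMM factors, which take most genes as unchanged. The NPL3 transcript was present in every library (180.1 to 346 CPM), which does not check the point mutations. At 30 °C it stood at 198 to 207 CPM in NPL3, 254 to 288 in npl3-F162Y, 323 to 336 in npl3-P196D-A197D and 207 to 218 in npl3-F245I. At 37 °C it stood at 180.1 to 203, 232 to 280, 276 to 317 and 338 to 346 CPM in the same order. The part of these levels in the results was not tested. Of the 6 a-cell markers, all were present in every library (from 40.6 CPM for MFA1 upward). Of the 4 alpha-cell markers, MF(ALPHA)1, MF(ALPHA)2 and STE3 stayed at or below 21.9 CPM, while SAG1 stood at 52 to 110.8 CPM. The 6 heat shock genes checked were all higher in every 37 °C library than in any 30 °C library, HSP104 for example at 373 to 652 CPM at 30 °C and 1507 to 2713 CPM at 37 °C. The libraries of replicate 2 at 37 °C carry title numbers of another series than the rest.

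Among the libraries, those of NPL3 at 37 °C disagreed with each other on the ribosome biogenesis genes far more than the libraries of any other group. Replicate 1 was the highest of the 3 in 57 of 57 members and lay above all 9 mutant libraries at 37 °C in 56. Replicate 3 was the lowest in 54 members and lay below all 9 mutant libraries in 43. The median ratio of replicate 1 to replicate 3 was 1.563. Within that group the median SD of log2 CPM was 0.321 over the members and 0.102 over all genes tested, whereas in the other 7 groups it lay between 0.0391 and 0.0707 over the members. Heat shock transcripts differed in the same libraries: HSP104 stood at 1507 CPM in replicate 1 and at 2266 and 2437 CPM in replicates 2 and 3, and HSP82 at 2310, 3386 and 3676 CPM. The part of the heat response in this spread was not tested. The counts called over all 57 members that rest on NPL3 at 37 °C are therefore given with and without single libraries. Other values that rest on it, such as those of single genes, roles, gene lists and promoter groups, are mostly given with all libraries only. Because the fit shares 1 estimate of the spread, the members' standard errors are larger in the other comparisons too. In npl3-F162Y against NPL3 at 30 °C their median was 0.10 on the log2 scale against 0.06 over all genes tested, and 0.06 when replicate 1 of NPL3 at 37 °C was left out.

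Together the 57 transcripts took up 1.631 ± 0.0532% of the assigned counts in NPL3 at 30 °C (mean ± SD, n = 3). The share was 1.428 ± 0.0304% in npl3-F162Y, 1.385 ± 0.0526% in npl3-P196D-A197D and 1.674 ± 0.0608% in npl3-F245I. At 37 °C the 3 NPL3 libraries held 1.5706, 1.2506 and 1.025%, and the mutant groups held 1.217 ± 0.0338, 1.138 ± 0.00953 and 1.219 ± 0.0158% in the same order. At 30 °C the libraries of npl3-F162Y and npl3-P196D-A197D thus all lay below those of NPL3, and those of npl3-F245I overlapped them. In RNA from whole cultures, fewer cells that express a gene and less of its RNA per cell cannot be told apart. Per kilobase of coding sequence the members spanned a wide range in NPL3 at 30 °C. The snoRNP proteins led, with NOP10 at 1654 ± 71.1 CPM per kilobase, NOP1 at 915 ± 15.0, NHP2 at 910.5 ± 34.0 and GAR1 at 775 ± 44.3. NOP1 and NHP2 did not differ beyond their spread. The long scaffold proteins of the processome stood at the other end, with UTP10 at 52.7 ± 8.08 and UTP20 at 21.1 ± 1.71 CPM per kilobase. Counts were divided by coding length alone, 177 bases in NOP10 and 7482 in UTP20. The part of that length in the order was not tested.

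**Figure D2:**
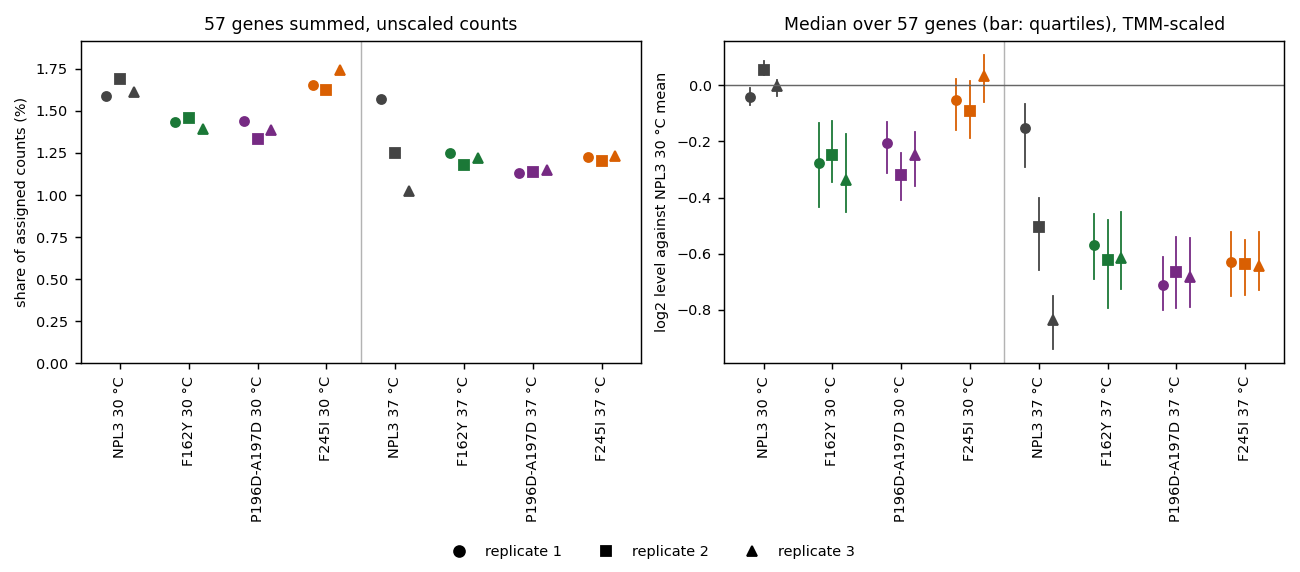
Left, the share of assigned counts (%) that the 57 genes took up in each of the 24 libraries, without scaling; right, the median over the 57 genes of the log2 level against the NPL3 mean at 30 °C, with bars from the lower to the upper quartile of the genes. Each point is 1 library, and the 3 NPL3 libraries at 37 °C spread from 1.5706 to 1.025% while each mutant group stays within a narrow band.

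At 30 °C, ribosome biogenesis transcripts were lower in npl3-F162Y and npl3-P196D-A197D than in NPL3, by a modest amount that recurred across nearly every complex, and were little changed in npl3-F245I. In npl3-F162Y 36 of 57 members fell and none rose (median log2 change -0.29), where 38.6% of all genes tested fell and 29.8% rose (median -0.04). In npl3-P196D-A197D 36 fell and none rose (median -0.25), where 31.7% of all genes fell and 24.1% rose. In npl3-F245I 7 fell and 1 rose (median -0.05), where 33.3% of all genes fell and 24.5% rose, so the share that fell was below that of all genes. A gene is said to rise or fall where its p from edgeR's quasi-likelihood test, adjusted by the method of Benjamini and Hochberg over 6518 genes, was below 0.05. The replicate values of the mutant lay wholly below those of NPL3 in 47 members in npl3-F162Y (42.6% of all genes) and in 49 in npl3-P196D-A197D (36.9%). Only UTP20, NOP4 and EBP2 in npl3-F162Y had a positive estimate, and none in npl3-P196D-A197D. All mutants were compared with the same 3 NPL3 libraries.

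The box C/D proteins and the nucleolin-like protein did not move evenly, and NSR1 fell the furthest of them. NSR1, the nucleolin-like protein that binds pre-rRNA, stood at 869, 926 and 847 CPM in NPL3 (replicates 1, 2 and 3), 485, 486 and 454 CPM in npl3-F162Y, 540.1, 492 and 485 CPM in npl3-P196D-A197D and 619.7, 626 and 705 CPM in npl3-F245I. The groups did not overlap with NPL3 in any mutant, and npl3-F245I lay between NPL3 and the other mutants. The log2 changes of NSR1 were -0.89 ± 0.17, adjusted p = 0.000144, -0.80 ± 0.17, adjusted p = 0.000614, and -0.44 ± 0.17, adjusted p = 0.0331 (± SE, edgeR's quasi-likelihood test, in the same order). NOP1, the fibrillarin methyltransferase, stood at 902, 885 and 915 CPM in NPL3, 726, 758 and 724 CPM in npl3-F162Y, 781, 722 and 702 CPM in npl3-P196D-A197D and 830.4, 806 and 857 CPM in npl3-F245I. It fell in the first pair of mutants (-0.29 ± 0.08, adjusted p = 0.00287 and -0.29 ± 0.08, adjusted p = 0.00376, edgeR), and its change in npl3-F245I did not pass (-0.12 ± 0.08, adjusted p = 0.224, edgeR). Of the scaffold pair NOP56 and NOP58, NOP56 fell in npl3-F162Y (-0.22), and NOP58 passed in no mutant (-0.12, -0.06 and 0.03).

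All 4 box H/ACA proteins fell in npl3-P196D-A197D, and all but NOP10 fell in npl3-F162Y. CBF5, the pseudouridine synthase, stood at 819.7, 775 and 763 CPM in NPL3, 634, 645 and 628 CPM in npl3-F162Y, 676, 649 and 660.1 CPM in npl3-P196D-A197D and 734, 722 and 754 CPM in npl3-F245I. Its libraries did not overlap with NPL3 in any mutant, and the log2 changes were -0.31 ± 0.06, adjusted p = 0.000117, -0.25 ± 0.06, adjusted p = 0.00149 and -0.09 ± 0.06, adjusted p = 0.1972 (edgeR), of which the last did not pass. GAR1, a small subunit of the same particle, fell in all 3 mutants, from 479 ± 27.4 CPM (mean ± SD, n = 3) in NPL3 to 327 ± 15.2, 358 ± 17.3 and 394 ± 11.6 CPM (log2 -0.55, -0.42 and -0.28). GAR1 and RPF1 are neighbours on chromosome VIII and point towards each other (281495 to 282382 for RPF1, 282681 to 283298 for GAR1). RPF1, a Brix-domain 60S factor, passed in no mutant (-0.11, -0.11 and 0.15).

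The UTP complexes that found the processome fell in the same pair of mutants. Of the 6 UtpA members, which bind the start of the nascent pre-rRNA, 5 fell in npl3-F162Y and all of these but UTP8, so 4, fell in npl3-P196D-A197D. UTP4 stood at 286, 305 and 294 CPM in NPL3, 210.1, 220.2 and 196.7 CPM in npl3-F162Y, 231, 218 and 221 CPM in npl3-P196D-A197D and 259.5, 259 and 288 CPM in npl3-F245I. It was separate from NPL3 in the first pair of mutants (-0.50 ± 0.10, adjusted p = 0.000243 and -0.40 ± 0.10, adjusted p = 0.00238, edgeR), while in npl3-F245I 1 library reached the NPL3 range and the change did not pass (-0.13 ± 0.10, adjusted p = 0.27, edgeR). UTP5 fell furthest of the complex (-0.58 and -0.50), and UTP15 fell in all 3 mutants (-0.51, -0.46 and -0.36). Of the 5 members of UtpB and UtpC, 3 fell in npl3-F162Y and 4 fell in npl3-P196D-A197D, DIP2 the most (-0.38 and -0.33). UTP6 passed in neither (-0.12 and -0.21), and no member of the 2 complexes passed in npl3-F245I.

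Of the 6 proteins of the U3 snoRNP and the Mpp10 complex, which base-pair U3 with the precursor and hold it, 5 fell in both mutants and UTP7 in neither. RRP9, the U3-specific protein, fell in all 3 mutants (-0.45, -0.40 and -0.28), from 255 ± 10.5 CPM in NPL3 to 186 ± 6.72, 193 ± 10.2 and 210.0 ± 14.8 CPM. IMP3 and IMP4 fell in npl3-F162Y (-0.29 and -0.30) and had log2 values of 0.03 and 0.01 in npl3-F245I and were not called. The remaining small-subunit factors stood apart from this. Among the 7 of them ENP1 alone, a component of the 40S precursor, fell in both mutants (-0.55 and -0.48). KRR1 stood at 184, 185 and 186 CPM in NPL3 and at 178, 186 and 177 CPM in npl3-F162Y (-0.04 ± 0.06, adjusted p = 0.586, edgeR). UTP20, a long scaffold protein, was the only member that rose in any mutant at 30 °C. Its level was 145, 170.1 and 159 CPM in NPL3 and 194, 199.8 and 205 CPM in npl3-F245I (0.34 ± 0.10, adjusted p = 0.00694, edgeR), with all 3 libraries above those of NPL3.

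Large-subunit factors fell about as often as those of the small subunit: 16 of 25 in both npl3-F162Y and npl3-P196D-A197D, against 20 of 32 of the others. Among the GTPases NOG2 fell as far as NSR1. NOG2, which sits on the late nuclear 60S precursor, stood at 298, 328 and 312 CPM in NPL3, 167, 173 and 163 CPM in npl3-F162Y, 181, 169.8 and 169.9 CPM in npl3-P196D-A197D and 201, 199.5 and 227 CPM in npl3-F245I. Every mutant library lay below every NPL3 library, and the log2 changes were -0.89 ± 0.13, adjusted p = 3.59e-06, -0.85 ± 0.13, adjusted p = 1.37e-05 and -0.58 ± 0.12, adjusted p = 0.000564 (edgeR). NOG2 is the only member with an intron. It overlaps the snoRNA gene SNR191 on the same strand over 274 bases, so reads of the host and of the snoRNA meet there, and the part of that overlap in the change was not tested.

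NOG1, the GTPase of earlier 60S particles, stood at 611, 661 and 647 CPM in NPL3, 447, 461 and 425 CPM in npl3-F162Y, 486, 443 and 444 CPM in npl3-P196D-A197D and 567, 549 and 634 CPM in npl3-F245I. It was separate in the first pair of mutants (-0.53 ± 0.12, adjusted p = 0.000537 and -0.48 ± 0.12, adjusted p = 0.0017, edgeR) and overlapped with NPL3 in npl3-F245I (-0.13 ± 0.12, adjusted p = 0.342, edgeR). TIF6, which keeps the 60S particle from joining 40S subunits, stood at 431, 422 and 445 CPM in NPL3, 314, 323 and 306 CPM in npl3-F162Y, 339.9, 332 and 338 CPM in npl3-P196D-A197D and 377, 377 and 402 CPM in npl3-F245I. TIF6 fell in every mutant, by less in npl3-F245I: -0.46 ± 0.06, adjusted p = 1.21e-07, -0.36 ± 0.06, adjusted p = 8.44e-06 and -0.17 ± 0.06, adjusted p = 0.0127 (edgeR). NMD3, the adapter that hands 60S particles to the exportin Crm1, fell in npl3-F162Y (-0.57) and npl3-P196D-A197D (-0.50).

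NOP7, which works with ERB1 and YTM1 in the processing of the 27S precursor, was among the members that changed least. It stood at 441, 445 and 410.3 CPM in NPL3, 416, 416 and 387 CPM in npl3-F162Y, 397, 372 and 411 CPM in npl3-P196D-A197D and 451, 458 and 483 CPM in npl3-F245I. The ranges overlapped with NPL3 in npl3-F162Y and npl3-P196D-A197D and lay above it in npl3-F245I, and no mutant passed (-0.09 ± 0.11, adjusted p = 0.463, -0.14 ± 0.11, adjusted p = 0.285 and 0.10 ± 0.11, adjusted p = 0.422, edgeR). Its partner ERB1 fell in the first pair of mutants (-0.37 and -0.38), YTM1 in neither. Among the Noc proteins, which escort 60S precursors through the nucleus, NOC3 fell in all 3 mutants (-0.50, -0.43 and -0.20). The DEAD-box helicases DRS1, HAS1 and SPB4 fell in both of the first mutants, HAS1 the most (-0.52 and -0.45). Of the Brix-domain proteins, SSF1 fell the most (-0.58 and -0.52). SSF1 shares 92.15% identity over 1363 bases with SSF2, so that reads may be split between the copies. SSF2 itself fell in npl3-F162Y (-0.17) and did not pass in npl3-P196D-A197D (-0.15). EBP2 and NOP4 passed in no mutant (EBP2 0.03, -0.06 and 0.10).

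**Figure D3:**
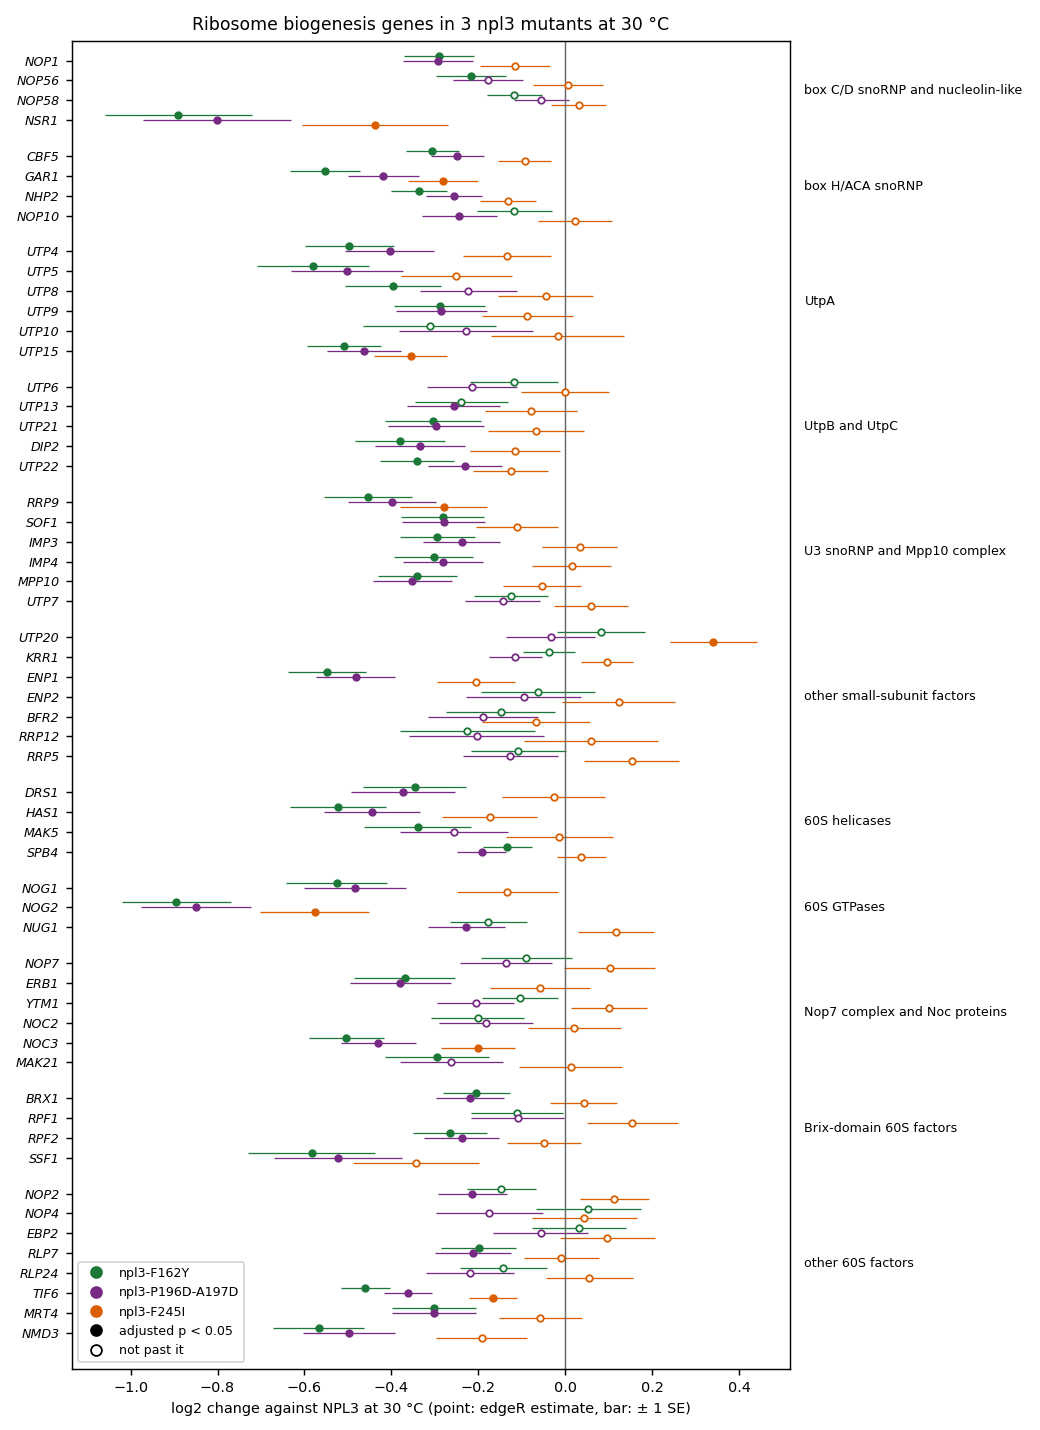
Log2 change against NPL3 at 30 °C of each of the 57 genes in npl3-F162Y (green), npl3-P196D-A197D (purple) and npl3-F245I (orange), grouped by role; bars are ± 1 SE of edgeR's estimate and filled points pass an adjusted p of 0.05. Green and purple points lie mostly left of 0, with NSR1 and NOG2 farthest, and orange points scatter around 0 with UTP20 the only filled point on the right.

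The 30 °C counts depended on the scaling and on the NPL3 37 °C library described above. With library totals in place of TMM factors, 20 members fell in npl3-F162Y and 23 did so in npl3-P196D-A197D with none higher, and in npl3-F245I 9 rose and 2 fell; that scaling moved the median of all genes from -0.04 to 0.08, -0.04 to 0.02 and -0.04 to 0.07, while the median of the members minus that of all genes was -0.25, -0.21 and -0.01 under both. Without replicate 1 of NPL3 at 37 °C in the spread, 44 members fell in each of npl3-F162Y and npl3-P196D-A197D, and in npl3-F245I 3 rose and 13 fell (22.8%). In that fit 39.8, 33.4 and 35.5% of all genes fell and 30.2, 24.8 and 25.4% rose. When only the groups compared were fitted, 26 members were called in npl3-F245I, counted in either direction and with no share taken over all genes.

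**Figure D4:**
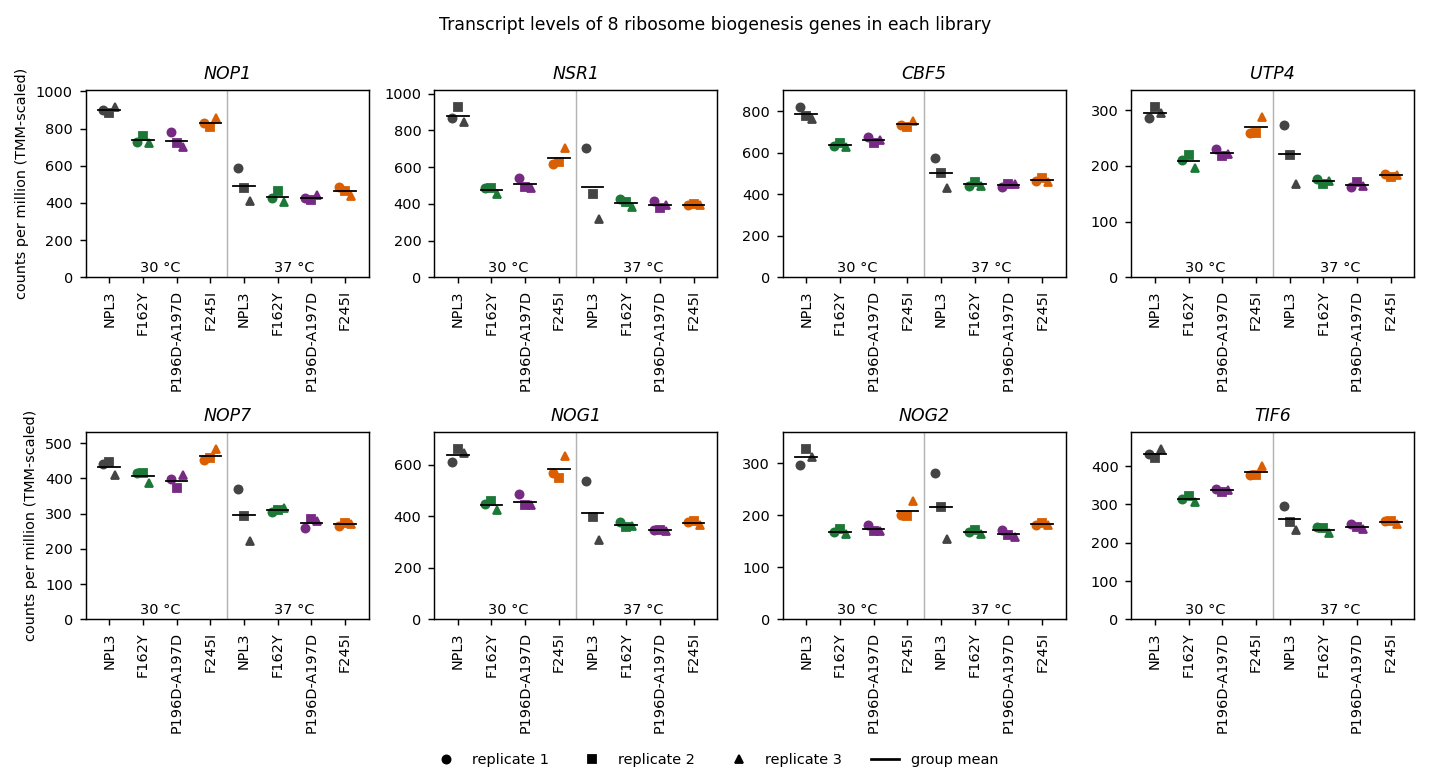
CPM (TMM-scaled) of 8 genes in each of the 24 libraries, by strain and temperature; point shapes give the replicate and bars the group mean of 3 libraries. NSR1 and NOG2 stand far below NPL3 in every mutant at 30 °C, NOP7 does not, and in all 8 genes replicate 1 (circle) of NPL3 at 37 °C lies above replicate 3 (triangle).

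The mutants were also compared with each other at 30 °C, where the NPL3 libraries entered only through the shared estimate of the spread. The members were higher in npl3-F245I than in npl3-F162Y: 23 of 57 passed, all upwards, where 16.8% of all genes were higher and 16.9% lower (median of the members 0.25, of all genes 0.01). The largest differences were those of NSR1 (0.45 ± 0.17, adjusted p = 0.046), NOG1 (0.39 ± 0.12, adjusted p = 0.0134) and NMD3 (0.38 ± 0.10, adjusted p = 0.00938, edgeR's quasi-likelihood test). In npl3-P196D-A197D 18 members were lower than in npl3-F245I and none higher, where 11.6% of all genes were lower and 16.6% higher (median -0.23), led by UTP20 (-0.37 ± 0.10, adjusted p = 0.00959), NOG1 (-0.35 ± 0.12, adjusted p = 0.0303) and DRS1 (-0.35 ± 0.12, adjusted p = 0.0364, edgeR). The replicate values did not overlap in 54 members in either comparison (31.4 and 24.6% of all genes in those directions). Between npl3-P196D-A197D and npl3-F162Y no member passed edgeR's test, none had an unadjusted p under 0.05 and DESeq2 called none, where 25.2% of all genes passed. Their log2 differences lay between -0.23 and 0.17 with a median SE of 0.10. Even those at the ends of that range did not pass (smallest adjusted p 0.193, edgeR), so differences larger than that SE may also have gone unresolved. These counts moved with single libraries: without replicate 3 of npl3-F245I, the highest of that group, 5 members passed in each of the first comparisons, without replicate 1 or 3 of npl3-F162Y 15 and 8 passed in its comparison with npl3-F245I, and without replicate 2 or 3 of npl3-P196D-A197D 6 and 9 passed in its comparison with npl3-F245I. They rose to 50 and 43 without replicate 1 of NPL3 at 37 °C in the spread, where 1 member passed between npl3-P196D-A197D and npl3-F162Y. In those directions 20.3 and 14.8% of all genes were called in that fit. With library totals the second count was 34. When only the groups compared were fitted, 54 and 55 members passed in the first comparisons and 11 between npl3-P196D-A197D and npl3-F162Y, of which 4 were higher and 7 lower in npl3-P196D-A197D. Shares over all genes were not taken in that fit, with library totals or without single mutant libraries. Those counts can therefore not be set against all genes.

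Other genes of the pathway were taken from lists drawn up by function. Of 106 further ribosome biogenesis factors, 59 fell and 11 rose in npl3-F162Y, 59 fell and 8 rose in npl3-P196D-A197D, and 10 fell and 14 rose in npl3-F245I. These were 55.7, 55.7 and 9.43% of the list lower and 10.4, 7.55 and 13.2% higher, where 38.6, 31.7 and 33.3% of all genes fell and 29.8, 24.1 and 24.5% rose. Among the falls were UTP30 (-0.81, -0.66 and -0.43), a pre-ribosomal protein, and RSA4 (-0.70, -0.66 and -0.42), which links the 60S precursor to the ATPase Rea1. Among those that rose in all 3 mutants were RRP14 (1.78, 1.01 and 1.08), NOP8 (1.22, 0.68 and 0.31), NOP16 (0.96, 0.61 and 0.25), NOP53 (0.83, 0.42 and 0.44) and FYV7 (0.91, 0.36 and 0.47). RRP14 went from 196.8 ± 21.2 CPM in NPL3 to 676 ± 31.8, 397 ± 27.9 and 416 ± 7.4 CPM, a rise larger than the change of any of the 57 members. Of the 17 genes of RNA polymerase I and its factors, 12, 9 and 6 fell and 0, 0 and 1 rose, which is 70.6, 52.9 and 35.3% lower; the last lay near the 33.3% of all genes that fell in npl3-F245I. HMO1, the high-mobility-group protein of rDNA chromatin, fell in all 3 (-0.55, -0.46 and -0.46), and RPA135, the second-largest subunit, fell in npl3-F162Y and npl3-P196D-A197D (-0.55 and -0.46).

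The transcripts of 12 regulators of these genes did not move as a block. SFP1, the activator of the regulon, fell in every mutant (-0.52, -0.31 and -0.32). IFH1, the co-activator of ribosomal protein genes, rose in every mutant (0.85, 0.44 and 0.85). STB3, which binds RRPE, rose slightly in every mutant (0.23, 0.16 and 0.18), as did CRF1, a co-repressor measured at under 7 CPM (0.86, 0.38 and 0.57). TOD6, which binds PAC, fell in npl3-F162Y and npl3-P196D-A197D (-0.76 and -0.74), and its paralogue DOT6 passed in no mutant (-0.03, -0.11 and -0.04). FHL1 rose in npl3-F162Y and npl3-F245I (0.22 and 0.18). The general factors RAP1, ABF1 and REB1 and the deacetylase gene RPD3 fell in every mutant, RPD3 for example with log2 changes of -0.55, -0.32 and -0.43, and the kinase gene SCH9 passed in none.

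The shift to 37 °C lowered ribosome biogenesis transcripts in every strain. In NPL3 54 of 57 members fell and none rose (median log2 change -0.48), where 32.9% of all genes fell and 34.1% rose (median 0.01). In npl3-F162Y 36 fell (27% of all genes), in npl3-P196D-A197D 45 (28.5%) and in npl3-F245I 55 (30.8%). None rose, where 34.4, 33.4 and 37.8% of all genes did. The medians were -0.28, -0.40 and -0.60. Every role group held members that fell in each strain, except the 4 60S helicases in npl3-F162Y, of which none passed edgeR's test (DRS1 -0.19, HAS1 -0.26, MAK5 -0.07 and SPB4 -0.06). Without replicate 1 of NPL3 at 37 °C the NPL3 count was 57, where 33.7% of all genes fell. Without replicate 3 the count was 49, and all 57 estimates were negative under both. When only the groups compared were fitted it was 30. With library totals 36 fell in NPL3 and 21 in npl3-F162Y, where 1 rose. That scaling moved the median of all genes from 0.01 to 0.21 in NPL3 and from 0.04 to 0.15 in npl3-F162Y. Shares over all genes were not taken in these fits or without replicate 3.

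By role, the snoRNP proteins had the lowest medians in NPL3, -0.74 for box H/ACA and -0.71 for box C/D with NSR1. GAR1 went from 508, 453 and 476 CPM to 296, 215 and 218 CPM in NPL3 and from 388, 387 and 407 CPM to 206, 199 and 199 CPM in npl3-F245I. Its log2 changes were -0.98 ± 0.08 in NPL3, -0.73 in npl3-F162Y, -0.75 in npl3-P196D-A197D and -0.97 in npl3-F245I, with no overlap between temperatures in any strain. NOP1 stood at 587, 480.2 and 409 CPM in NPL3 at 37 °C, 429, 464 and 404 CPM in npl3-F162Y, 424, 418 and 440.5 CPM in npl3-P196D-A197D and 485, 465 and 440.1 CPM in npl3-F245I. It fell in each strain (-0.87, -0.77, -0.78 and -0.84). CBF5 stood at 573, 502 and 428 CPM in NPL3 at 37 °C, 440.0, 462 and 441 CPM in npl3-F162Y, 436, 451 and 449 CPM in npl3-P196D-A197D and 464, 481 and 459 CPM in npl3-F245I. Its falls were -0.65, -0.51, -0.57 and -0.65. NHP2 fell by a like amount (-0.80, -0.60, -0.65 and -0.90).

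NSR1 and NOG2, with the deepest falls at 30 °C, did not pass between temperatures in npl3-F162Y, though its NSR1 libraries at 37 °C all lay below those at 30 °C. NSR1 stood at 706, 456 and 317 CPM in NPL3 at 37 °C, 429, 409 and 384 CPM in npl3-F162Y, 417, 379 and 394 CPM in npl3-P196D-A197D and 393, 402 and 395 CPM in npl3-F245I. The mutants thus met within a narrow range between the NPL3 replicates. NSR1 fell in NPL3 (-0.84 ± 0.17, adjusted p = 0.000262, edgeR) and npl3-F245I (-0.71 ± 0.17, adjusted p = 0.00106, edgeR), and did not pass in npl3-F162Y (-0.22 ± 0.17, adjusted p = 0.268, edgeR) or npl3-P196D-A197D (-0.35 ± 0.17, adjusted p = 0.0825, edgeR). The difference of the NSR1 response from that of NPL3 did not pass in npl3-F162Y (0.62 ± 0.24, adjusted p = 0.0767, edgeR's interaction). It did not pass in npl3-P196D-A197D either (0.49 ± 0.24, adjusted p = 0.2165, edgeR). NOG2 stood at 282, 216 and 154 CPM in NPL3 at 37 °C, 169, 172 and 165 CPM in npl3-F162Y, 172, 161.97 and 159 CPM in npl3-P196D-A197D and 182, 186 and 182 CPM in npl3-F245I. It fell in NPL3 (-0.53) and had log2 changes of 0.00, -0.08 and -0.19 in the mutants, none of which passed. The difference of the NOG2 response from that of NPL3 passed in npl3-F162Y alone (adjusted p = 0.0395, 0.1175 and 0.1694, edgeR's interaction).

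The other examples fell in every strain. UTP4 stood at 274, 220.1 and 168 CPM in NPL3 at 37 °C, 177, 168 and 172 CPM in npl3-F162Y, 163, 170.3 and 163 CPM in npl3-P196D-A197D and 185, 179 and 184 CPM in npl3-F245I (-0.42, -0.28, -0.43 and -0.56). NOP7 stood at 369.8, 294 and 222 CPM in NPL3, 305, 309.8 and 315 CPM in npl3-F162Y, 259, 285 and 279.9 CPM in npl3-P196D-A197D and 266, 274 and 270.5 CPM in npl3-F245I (-0.55, -0.39, -0.52 and -0.78). In NOP7, as in NSR1 and NOG2, the NPL3 libraries lay on both sides of all mutant libraries, while in UTP4 the lowest NPL3 library lay within their range. NOG1 stood at 536, 398 and 308 CPM in NPL3, 378, 360.4 and 362 CPM in npl3-F162Y, 348, 347 and 344 CPM in npl3-P196D-A197D and 378, 382 and 365 CPM in npl3-F245I (-0.63, -0.28, -0.40 and -0.64). TIF6 stood at 296, 255 and 233 CPM in NPL3, 239.9, 237 and 225 CPM in npl3-F162Y, 249, 239.9 and 236 CPM in npl3-P196D-A197D and 257, 257 and 249 CPM in npl3-F245I (-0.73, -0.43, -0.48 and -0.60). SPB4, a 60S helicase, was the least affected member in NPL3, npl3-P196D-A197D and npl3-F245I (-0.12, -0.04 and -0.18), and passed in npl3-F245I alone of these. Of the 106 further biogenesis factors 93 fell (87.7%) and 1 rose in NPL3, and of the 17 genes of RNA polymerase I and its factors 10 fell (58.8%) and none rose, where 32.9% of all genes fell and 34.1% rose.

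At 37 °C the members stood close to each other in the 3 mutants, and how they compared with NPL3 depended on which NPL3 library was counted. With all libraries 8 members fell in npl3-F162Y (30.8% of all genes), 13 in npl3-P196D-A197D (22.4%) and 7 in npl3-F245I (26.5%), and none rose, where 28, 21.3 and 24% of all genes did (medians -0.12, -0.17 and -0.15). When only the groups compared were fitted, 1, 0 and 0 members were called, with no share taken over all genes. UTP22, the UtpC scaffold, fell in all 3 (-0.38, -0.40 and -0.30), as did UTP4 (-0.35, -0.41 and -0.27) and ENP1 (-0.22, -0.24 and -0.22). In ENP1, however, replicate 3 of NPL3 (125 CPM) lay below every mutant library at 37 °C (130 to 140 CPM). CBF5 fell in npl3-F162Y and npl3-P196D-A197D (-0.16 and -0.17), NOP1 in npl3-P196D-A197D (-0.20) and TIF6 in npl3-F162Y (-0.16), while NSR1, NOP7 and NOG1 passed in no mutant (NSR1 -0.27, -0.31 and -0.31). The mutant libraries lay wholly below those of NPL3 in 2, 0 and 2 members, against 27.8, 21.1 and 25.4% of all genes.

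Without replicate 1 of NPL3 the calls shifted upwards: 18 members rose and 3 fell in npl3-F162Y (median 0.08), 4 rose and 3 fell in npl3-P196D-A197D (median -0.01) and 5 rose and none fell in npl3-F245I (median 0.04). In that fit 27.7, 19.6 and 22.8% of all genes rose and 28.7, 20.1 and 25.1% fell. Without replicate 3, 38, 48 and 43 members fell and none rose. Shares over all genes were not taken without replicate 3. NSR1 in npl3-F162Y, for example, had a log2 change of 0.08 without replicate 1 (adjusted p = 0.535) and -0.51 without replicate 3 (adjusted p = 0.000501, edgeR). UTP4 in npl3-P196D-A197D kept its call under both, at -0.23 without replicate 1 and -0.57 without replicate 3. Without the 4 libraries of the other title number series 3, 2 and 2 members fell and none rose. In that fit 29.2, 19.5 and 24.7% of all genes fell and 26.4, 19 and 22.8% rose. Leaving out replicate 1 of NPL3 as well leaves replicate 3 as the only NPL3 library at 37 °C, so counts against it are not given. There 5 named falls turned to positive values. Between the mutants, where NPL3 entered only through the shared spread, 1 member passed at 37 °C: KRR1, a processome protein, was lower in npl3-F245I than in npl3-F162Y (-0.20 ± 0.06, adjusted p = 0.0112, edgeR), where 19.7% of all genes were lower and 18.5% higher. Between npl3-P196D-A197D and npl3-F162Y, and between npl3-P196D-A197D and npl3-F245I, no member passed edgeR's test, where 19.3 and 37.7% of all genes did; 1 member had an unadjusted p under 0.05 in each, and DESeq2 called 0 and 1. Without replicate 1 of NPL3 at 37 °C in the spread, 4 members passed between npl3-F245I and npl3-F162Y, 3 between npl3-P196D-A197D and npl3-F245I and 0 between npl3-P196D-A197D and npl3-F162Y. In the same order 20, 22.4 and 12.5% of all genes were higher in that fit and 21.6, 18.9 and 10.9% lower. When only the groups compared were fitted, the member counts were 11, 6 and 6, with no share taken over all genes.

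**Figure D5:**
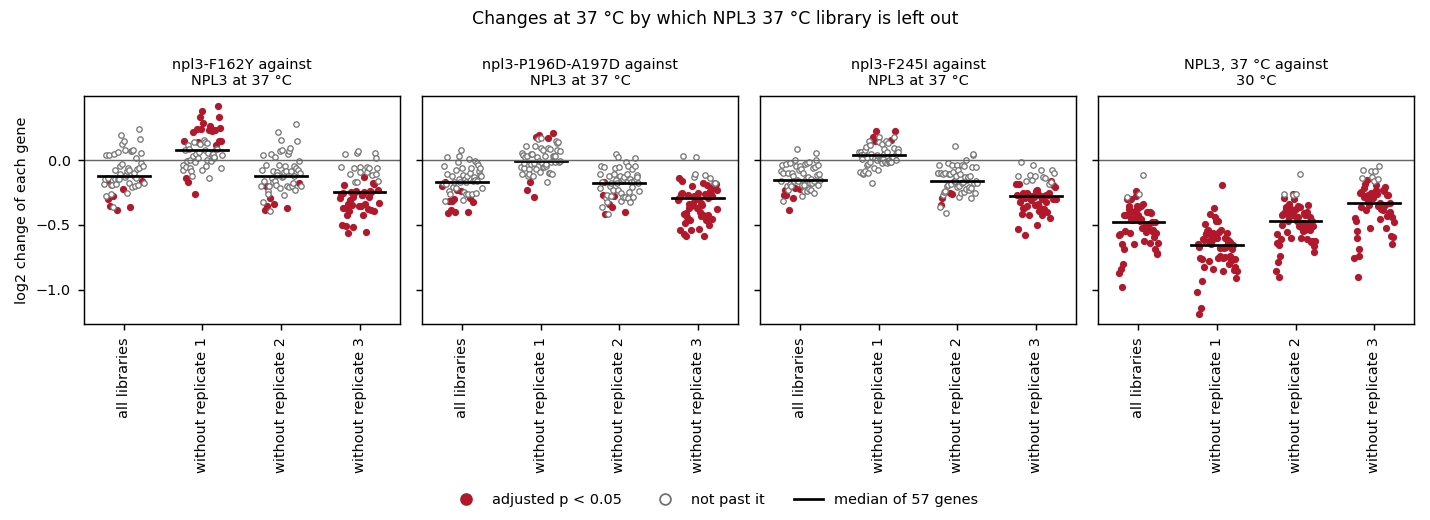
Log2 change of each of the 57 genes in the 3 mutants against NPL3 at 37 °C and in NPL3 between temperatures, with all libraries and without each NPL3 37 °C library in turn; red points pass an adjusted p of 0.05 (edgeR) and black lines are medians. In npl3-F162Y the median moves from -0.12 to 0.08 without replicate 1 and to -0.25 without replicate 3, while in NPL3 all 57 genes stay below 0 throughout.

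Whether the response to 37 °C differed between a mutant and NPL3 was tested by the interaction. In npl3-F162Y 3 members had a smaller fall than in NPL3 (11.8% of all genes were called in that direction and 8.68% in the other): NOG2 (0.53 ± 0.18, adjusted p = 0.0395), NOC3 (0.40 ± 0.12, adjusted p = 0.0203) and TIF6 (0.30 ± 0.08, adjusted p = 0.00821, edgeR). In npl3-P196D-A197D TIF6 alone passed in that direction (0.25 ± 0.08, adjusted p = 0.0444, edgeR; 5.57% of all genes, and 5.08% in the other). In npl3-F245I UTP20 alone passed, with a larger fall than in NPL3 (-0.50 ± 0.14, adjusted p = 0.0125, edgeR; 12.4% of all genes, and 16.5% in the other). Over all members the difference of the responses was positive in 53 of 57 in npl3-F162Y (median 0.19), in 48 in npl3-P196D-A197D (median 0.10) and in 13 in npl3-F245I (median -0.07). The medians of all genes were 0.02, 0.02 and 0.01, and their signs were not counted. All members share the same NPL3 libraries, so they are not replicates. Without replicate 1 of NPL3 at 37 °C 57, 56 and 43 were positive (medians 0.36, 0.29 and 0.07). Without replicate 3 the numbers were 34, 24 and 3 (medians 0.04, -0.04 and -0.24). The calls moved as well: without replicate 1 of NPL3 at 37 °C 45, 32 and 9 members had a smaller fall and 0, 0 and 1 a larger one. In that fit 18.2, 11.9 and 17.9% of all genes were called in the first direction and 11.4, 7.62 and 12.1% in the other. Without replicate 3 the members were 3, 0 and 0 smaller and 0, 1 and 26 larger, with no shares taken over all genes. When only the groups compared were fitted, no member passed in any of the 3 interactions. Of 23 alternatives, the call of TIF6 in npl3-P196D-A197D was lost in 17, DESeq2's size factors, library totals and TMM factors without pathway genes among them, that of NOG2 in 12, and those of NOC3, of TIF6 in npl3-F162Y and of UTP20 in 2 each.

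The members were also grouped by their promoter letters. Among the 39 members with both motifs 24 fell in npl3-F162Y at 30 °C (61.5%, median -0.29), and among the 15 with GATGAG alone 9 did (60%, median -0.29). UTP4 and UTP15, with AAAAATTTT alone, and UTP22, with neither, fell as well. In the shift of NPL3, 36 of 39 fell with both (92.3%, median -0.53) and 15 of 15 with GATGAG alone (median -0.46). The shares lay further apart in the shifts of npl3-F162Y, at 71.8% with both (median -0.35) and 40% with GATGAG alone (median -0.16), and of npl3-P196D-A197D, at 84.6 and 60%. They lay the other way in the shift of npl3-F245I (94.9 and 100%) and in npl3-P196D-A197D at 30 °C (59 and 66.7%). In npl3-F245I at 30 °C the shares were 7.69 and 20%. These groups were set by sequence and not tested against each other.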

How the data were processed

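Raw counts per gene were deposited for 24 libraries, 3 in each of 8 groups. Per the submitters' processing notes the tools were FastQC, STAR 2.7.2a and HTSeq and the genome build R64. For HTSeq a strand setting was not given in the sources used here. The labels do not say whether replicates came from separate cultures, so the p-values measure the spread between these libraries, which may be technical. Features other than genes stayed out of library sizes.

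Counts were analysed in R 4.3.3 with edgeR 4.0.16: TMM factors, its filter on low counts (6518 genes tested), 1 mean for each group over all 24 libraries (common biological coefficient of variation 5.26%) and the robust quasi-likelihood test. P-values were adjusted by Benjamini-Hochberg over all genes tested, with a threshold of 0.05, in each of 19 comparisons. Alternatives used DESeq2 1.42.0 and other scalings, filters, terms and left-out libraries. The fit was tested on simulated data. Members and lists were chosen with earlier results of these data known. Promoters were searched in the RefSeq R64 genome, in which all 57 members were matched, and copies were sought with BLAST 2.17.0. Named genes are the examples given for the gene set, the largest and smallest changes in each comparison and role, and all regulators; a few more, such as IMP3, IMP4, KRR1, RPF1 and SSF2, were named after their values were seen. Protein sequences were not used here.

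Same-numbered replicates were checked for pairing by the correlation of their deviations from the group means: in 1 of 16 pairs of groups every correlation was over 0.1, so the main comparisons use no replicate block. The libraries of replicate 2 at 37 °C, those of the other title number series, did correlate with each other, at 0.35 to 0.59.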

Additional observations from a re-analysis of the deposited data

Results flagged for a closer look

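The response to 37 °C differed from that of NPL3 in 5 cases by the test of the difference itself (edgeR's quasi-likelihood interaction, Benjamini-Hochberg adjusted). In npl3-F162Y the log2 change of NOG2 was higher by 0.53 than in NPL3, that of NOC3 by 0.40 and that of TIF6 by 0.30. In npl3-P196D-A197D that of TIF6 was higher by 0.25. In npl3-F245I that of UTP20 differed by -0.50, a larger fall than in NPL3. All 5 rest on the NPL3 libraries at 37 °C. Without replicate 1 of that group the values were 0.76, 0.55, 0.40, 0.35 and -0.34, and without replicate 3 they were 0.31, 0.24, 0.21, 0.16 and -0.65. When only the groups compared were fitted, none of the 5 passed. Of 23 alternatives, that of TIF6 in npl3-P196D-A197D missed the threshold in 17, that of NOG2 in 12 and each of the others in 2. The part of that library spread in these differences was not tested.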

How the results depend on the processing

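Numbers here are members called of 57, by comparison. Shares over all genes, where taken, stand in the Results. With DESeq2's size factors in edgeR, 13 were called in npl3-F162Y at 37 °C, 0 in the npl3-P196D-A197D interaction and 1 between npl3-P196D-A197D and npl3-F245I at 37 °C. With a minimum mean of 10 CPM, 5 were called in npl3-F245I at 30 °C, 0 in the npl3-P196D-A197D interaction and 2 between npl3-F245I and npl3-F162Y at 37 °C. DESeq2 called 13 in npl3-F162Y at 37 °C, 2 in the npl3-F245I interaction, 2 between npl3-F245I and npl3-F162Y at 37 °C and 1 between npl3-P196D-A197D and npl3-F245I at 37 °C. With only the groups compared, 26 were called in npl3-F245I at 30 °C, 1, 0 and 0 in npl3-F162Y, npl3-P196D-A197D and npl3-F245I at 37 °C, 30 in the NPL3 shift and 0 in each interaction; between mutants, in the order npl3-P196D-A197D and npl3-F162Y, npl3-F245I and npl3-F162Y, npl3-P196D-A197D and npl3-F245I, 11, 54 and 55 were called at 30 °C and 6, 11 and 6 at 37 °C. Title number series as a term gave 2 in the npl3-P196D-A197D interaction, 1 in the first of these at 30 °C, and 2 and 1 in the second and the third at 37 °C. Without the 4 libraries of that series, 3, 2 and 2 were called in the mutants at 37 °C, 0 in the npl3-F162Y interaction and 1 between npl3-P196D-A197D and npl3-F162Y at 30 °C. TMM factors without pathway genes gave 4 in npl3-F245I at 37 °C and 0 in the npl3-P196D-A197D interaction. No filter on low counts moved no count by over 1.5 times.

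The replicate block moved 1 count by over 1.5 times: 1 member was called between npl3-P196D-A197D and npl3-F245I at 37 °C. Under the block NOC3 in npl3-F245I at 30 °C had an adjusted p of 0.0621 (-0.20) and NOP1 in npl3-F162Y at 37 °C an adjusted p of 0.0484 (-0.18, edgeR).

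Other alternatives were chosen after seeing the data. Library totals without TMM factors gave 20 and 23 in npl3-F162Y and npl3-P196D-A197D at 30 °C, 3 in npl3-F245I at 37 °C, 22 in the npl3-F162Y shift, 0 in the npl3-P196D-A197D interaction, 34 between npl3-P196D-A197D and npl3-F245I at 30 °C, and 2 and 3 between npl3-F245I and each of npl3-F162Y and npl3-P196D-A197D at 37 °C. Without replicate 1 of NPL3 at 37 °C in the spread, 44, 44 and 16 were called in the mutants at 30 °C, 47, 53 and 57 in their shifts, 1, 50 and 43 between mutants at 30 °C in the order above, and 4 and 3 in the second and the third at 37 °C. Without that library and the 4 libraries, 28 were called in npl3-F245I at 30 °C, 41, 28 and 38 in the mutants at 37 °C, 56, 52 and 34 in the interactions, and 6, 53 and 52 at 30 °C and 12, 10 and 8 at 37 °C between mutants. There 5 named values turned: CBF5 (0.03934) and UTP4 (0.05717) in npl3-F162Y, NOP1 (0.07984) and CBF5 (0.04668) in npl3-P196D-A197D and UTP4 (0.14) in npl3-F245I, all at 37 °C; NPL3 then has 1 library at 37 °C, assumed to vary like the other groups. The cause of these moves was not tested.

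Leaving out 1 library of the groups compared at a time, the calls at 30 °C ranged from 27 to 38 in npl3-F162Y, 24 to 36 in npl3-P196D-A197D and 5 to 10 in npl3-F245I. At 37 °C they ranged from 4 to 38, 5 to 48 and 3 to 43. The shifts ranged from 48 to 57 in NPL3, 26 to 31 in npl3-F162Y, 35 to 45 in npl3-P196D-A197D and 52 to 55 in npl3-F245I, and the interactions from 2 to 45, 0 to 32 and 1 to 26. Between mutants, in the order above, they ranged from 0 to 0, 5 to 20 and 5 to 14 at 30 °C and from 0 to 0, 0 to 2 and 0 to 0 at 37 °C. The npl3-F245I count at 30 °C was 5 without replicate 2 of NPL3 or replicate 1 or 2 of npl3-F245I. Of values of single named members over all alternatives, 3658 kept direction and side of the threshold, 191 lost the call, 132 gained it and 5 turned.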

Other observations

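Genes outside the 57 that hold both promoter motifs fell more often than genes with neither in part of the comparisons, as a description with no test. Of 181 such genes tested, 118 (65.2%) fell in npl3-F162Y at 30 °C, against 39.9% of 4513 genes with neither. In NPL3 between temperatures 128 of the 181 (70.7%) fell, against 31.6%. In npl3-F245I at 30 °C 24.9% of the 181 fell, against 37% of genes with neither. The 181 include further ribosome biogenesis genes, and the part of the letters in these shares was not tested.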
